A study of Mus musculus with 6 samples.

Results

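A set of receptor and ligand genes, through which trophic factors and neurotensin act on nigral neurons, was followed through RNA sequencing of the mouse substantia nigra pars compacta (SNpc), the midbrain region whose dopaminergic neurons project to the striatum. The set was drawn up by gene symbol and holds Ret, Gfra1, Gfra2, Bdnf, Ntrk2, Ntrk3, Ntsr1, Cntfr and Igf1r, that is 9 of the 35049 genes counted in laser-captured tissue and 9 of the 37991 counted in tissue punches. All 9 had at least 20 reads in 1 library of every pair. The 6 samples form 6 groups of 1 and fall into 3 pairs. En1+/- mice, in which 1 copy of the homeobox gene Engrailed 1 is disrupted, were set against wild type mice, both at 6 weeks. In wild type mice of 8 weeks, the infused side of the midbrain, supplied with Engrailed 2 (En2) by a pump over 7 days, was set against the contralateral side. For both pairs, neurons marked by a rapid stain for tyrosine hydroxylase were cut out by laser. For the remaining pair, wild type mice of 8 weeks had been injected with 6-hydroxydopamine (6-OHDA), a toxin that dopaminergic neurons take up, and 30 min later with 2 µl of either 300 ng En2 made in bacteria (4 µM) with 3 µg colominic acid, or 0.9% NaCl as vehicle. Here 1 mm punches were taken from frozen slices 2 mm thick. Both punched groups carry the lesion, so no unlesioned punch stands beside them, and colominic acid was given with En2 but is not named for the vehicle. The labels do not say how many animals stand behind a library.

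Trophic factors are secreted proteins that keep neurons alive and shape their processes. GDNF and neurturin bind the GPI-anchored co-receptors GFRα1 and GFRα2, which hand the signal to the receptor tyrosine kinase RET, and BDNF and neurotrophin 3 bind the kinases TrkB and TrkC. CNTF uses an anchored α subunit together with gp130 and the LIF receptor, IGF-1 uses its own receptor kinase, and neurotensin excites dopaminergic neurons through the G protein coupled receptor NTSR1, which is enriched in them.

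The captured libraries held 16145262 to 21332308 counts over all transcripts, and the punched libraries held 15927206 and 19044672 counts over genes. With only the most-read transcript of each captured gene kept, 1510189 to 3272409 counts lay outside mitochondrial and ribosomal RNA genes. Levels are given as reads per 1000000 outside mitochondrial and ribosomal RNA genes (CPM), for a captured gene by its most-read transcript. Ratios within a pair are log2 ratios of counts scaled by the median of ratios, with 0.5 added, and the range in parentheses is an exact 95% counting interval. Such intervals cover counting error only, since reads are not independent molecules, and as each group is 1 sample, none of the differences could be checked in replicates or tested for significance. A gene was called past the rule of size where 1 library of the pair had 20 reads or more, its log2 ratio was 1 or above, or -1 or below, and the interval left out 0. A gene with under 20 reads in 1 library of a pair reached the minimum through the other library alone, which favours genes that differ. En1 itself had 47 reads in En1+/- and 77 in wild type, 3.24-fold lower after scaling, as its label says. All 12 dopaminergic markers, Th and Slc6a3 among them, were present in all 6 libraries, with summed levels of 7777 to 10150 CPM in captured and 471 to 626 CPM in punched tissue. Oligodendrocyte markers summed to 19300 to 28520 CPM in the captured libraries, so these hold RNA of other cells too.

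Ret and Ntrk2 were by far the most abundant of the 9 in captured nigra. Per kilobase of transcript, Ret led in all 4 captured libraries with 240 CPM in En1+/-, 215 in wild type, 224 on the infused side and 193 on the contralateral side. Ntrk2 came next in each, at 123 to 148 CPM per kilobase. By reads, Ret stood above 99.4% to 99.5% of the genes with reads in these libraries. Gfra1 came after them, except on the infused side, where Ntsr1 held 81.9 CPM per kilobase and Gfra1 56.3. In the wild type and contralateral libraries Ntsr1 stood below Gfra1 and above Cntfr, and in En1+/- the intervals of Cntfr and Ntsr1 overlapped. Igf1r, Ntrk3 and Bdnf closed the order in all 4, at 0.84 to 5.36 CPM per kilobase, and in the wild type, infused and contralateral libraries their neighbouring intervals overlapped. In the punches the order differed: Ntrk2 led with 47.8 CPM per kilobase of merged exons after 6-OHDA then En2 and 43.1 after 6-OHDA alone, Gfra1 came next, and Cntfr and Ret followed with overlapping intervals. No ratio between the tissues was taken, because the captured values are per transcript and the punched values per gene.

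**Figure D1:**
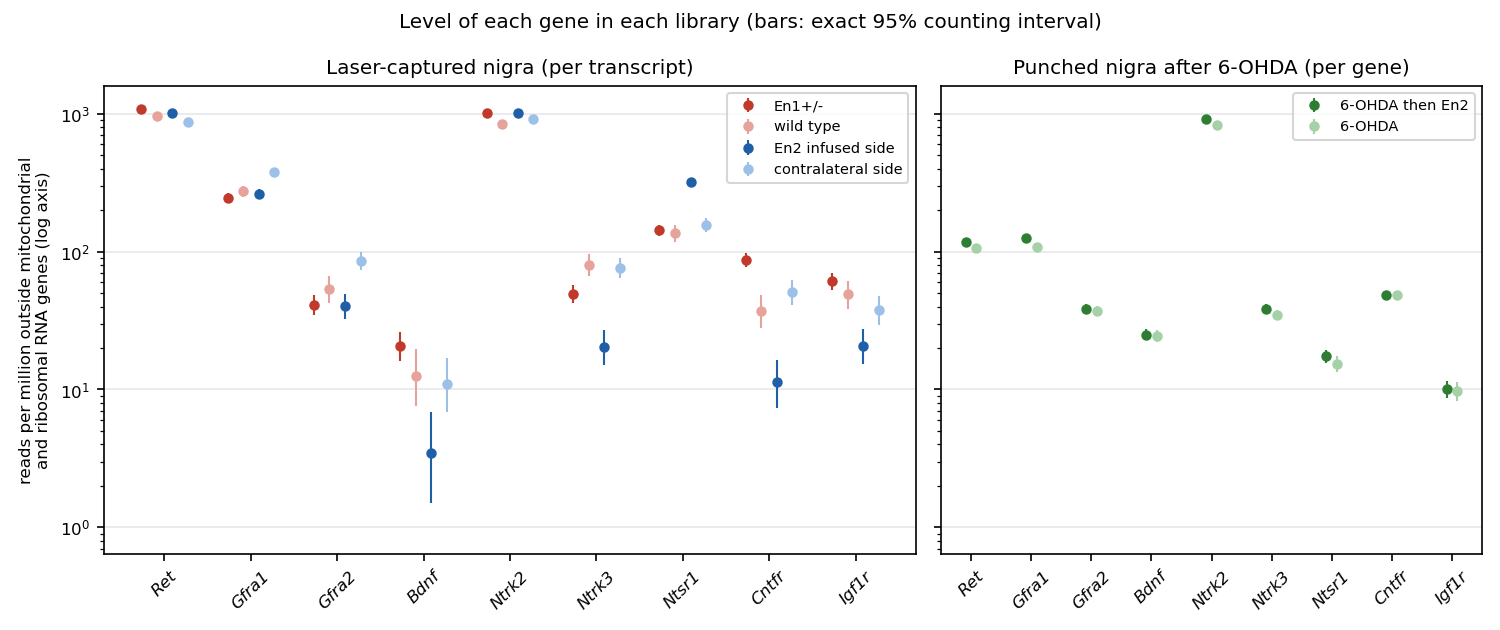
Level of each of the 9 genes in each library, in CPM (reads outside mitochondrial and ribosomal RNA genes) on a log axis; bars are exact 95% counting intervals. Ret and Ntrk2 lie close to 1000 in all 4 captured libraries, while Cntfr runs between 11.3 and 87.1 there.

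How far a gene varied between libraries differed greatly within the set. Over the 4 captured libraries the highest CPM was 1.20 times the lowest for Ntrk2, 1.25 times for Ret and 1.53 times for Gfra1. It was 2.13 times for Gfra2, 2.35 for Ntsr1, 2.94 for Igf1r, 3.94 for Ntrk3, 6.00 for Bdnf and 7.73 for Cntfr. The 3 with the widest range were among the less abundant, and the infused library was the lowest of the 4 for each of them. Between the 2 punched libraries no gene varied more than 1.17 times.

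In the En1+/- library 1 of the 9 genes was past the rule of size, Cntfr, which was higher. By the same rule 20.2% of all 11500 measured genes were higher in En1+/- and 14.2% lower, so a single call among 9 lies near the background. On the infused side 4 of the 9 were past the rule: Ntsr1 was higher, and Ntrk3, Bdnf and Cntfr were lower. Of all 11361 genes measured in that pair, 20.7% were higher and 17.0% lower, so 1 higher call of 9 lies under its background and 3 lower calls of 9 lie above theirs, in a set too small to set it apart from other genes. After 6-OHDA then En2 none of the 9 was past the rule, where 4.66% of all 15747 measured genes were higher and 1.23% lower. Over the 9 genes the median log2 ratio was 0.28 for En1+/-, -0.75 for the infused side and 0.16 for 6-OHDA then En2, beside 0.10, 0.08 and 0.01 over all measured genes. Scaling by library totals moved the median of all genes to 0.88 in the En1+/- pair and 0.50 in the infusion pair, and with it the counts of genes higher and lower, which were 5139 and 756 against 2318 and 1632 in the En1+/- pair, and 3594 and 1280 against 2354 and 1933 in the infusion pair. Scaling by dopaminergic marker reads, an alternative added after the data had been seen, gave 1890 higher and 2448 lower in the infusion pair and, with a median of -0.43, 491 and 610 against 734 and 193 in the punched pair.

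The contralateral library and the wild type library, both without a change in En1 or an infusion on the sampled side, differ in age and in surgery on the other side. Between them 14.1% of 10742 measured genes were past the rule as higher on the contralateral side and 13.4% as lower, and none of the 9 was. The widest differences were log2 ratios of 0.72 (0.33 to 1.12) for Gfra2, 0.50 (0.32 to 0.68) for Gfra1 and 0.49 (0.00 to 0.99) for Cntfr.

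**Figure D2:**
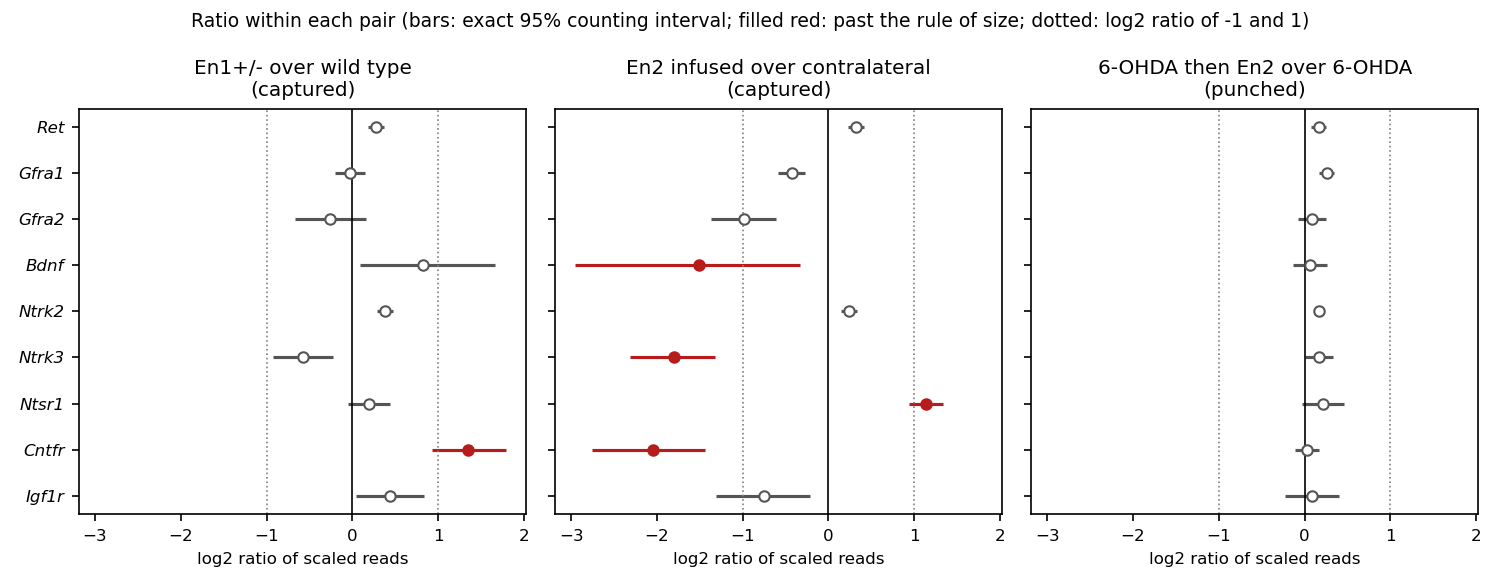
Log2 ratio of scaled reads of the 9 genes in each of the 3 pairs, with exact 95% counting intervals; filled red points are past the rule of size and dotted lines mark log2 ratios of -1 and 1. Cntfr lies at 1.34 in the En1+/- pair and at -2.05 on the infused side, and all 9 points of the punched pair lie between 0.03 and 0.26.

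**Figure D3:**
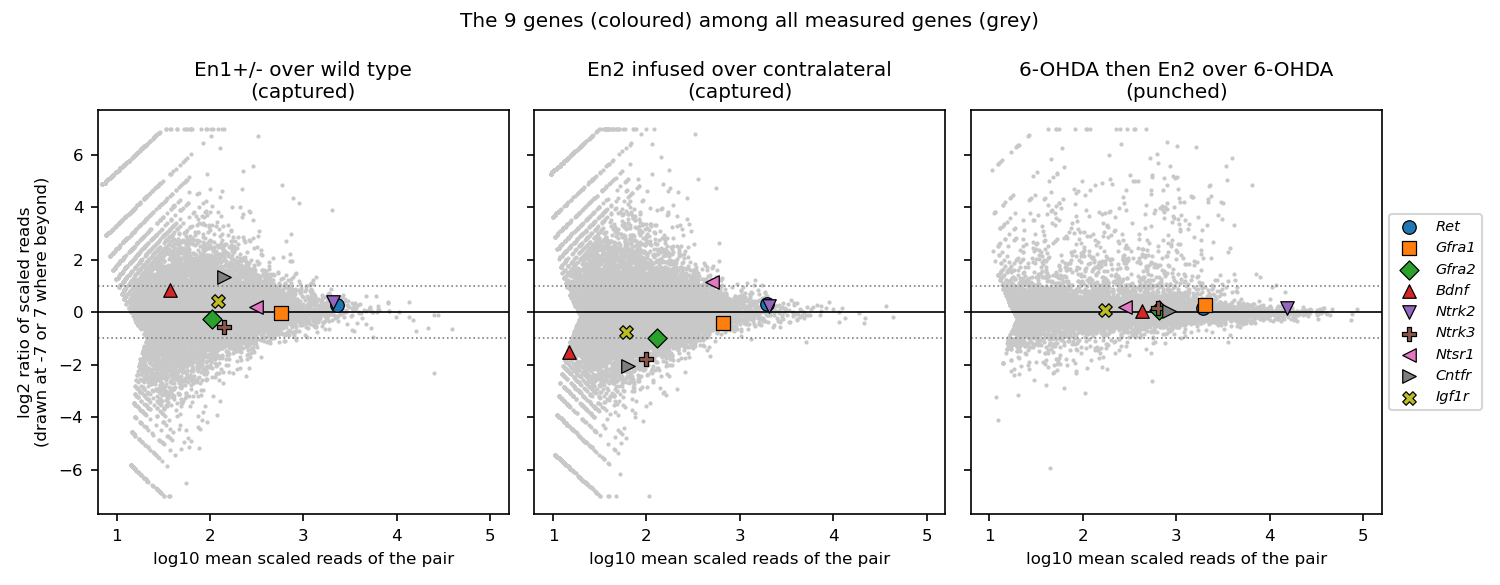
Log2 ratio against the log10 mean of scaled reads for all measured genes (grey) and the 9 genes (coloured symbols) in each pair. Among captured genes the grey cloud widens towards low read numbers, where Bdnf, Cntfr, Igf1r, Ntrk3 and Gfra2 lie. Ret and Ntrk2 lie at its narrow end. On the infused side Ntsr1 lies at 1.14, and 81.5% of all measured genes had a lower ratio.

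The receptors of the GDNF family were taken first. Ret (ENSMUSG00000030110; chr6:118151745-118197718, minus strand, GRCm38), which encodes the signalling kinase for all GDNF family ligands, had 3536 reads in En1+/- and 1461 in wild type, 2324 on the infused side and 1654 on the contralateral side, and 2221 after 6-OHDA then En2 and 1687 after 6-OHDA. Its level was 1081 CPM in En1+/- and 967 CPM in wild type, 1007 CPM on the infused side and 867 CPM on the contralateral side, and 117 CPM after 6-OHDA then En2 and 106 CPM after 6-OHDA. Ret was thus 1.21 times higher in En1+/-, 1.25 times on the infused side and 1.12 times after 6-OHDA then En2. The log2 ratios were 0.28 (0.19 to 0.36) for En1+/-, 0.32 (0.23 to 0.41) for the infused side and 0.16 (0.07 to 0.26) for 6-OHDA then En2. Relative to dopaminergic marker reads, Ret took 139 reads per 1000 in En1+/- and 107 in wild type, 99.1 on the infused side and 93.6 on the contralateral side. On that scale the punched pair turned round, with 186 per 1000 after 6-OHDA then En2 and 225 after 6-OHDA. In bulk tissue of this kind fewer cells of a type and less RNA per cell cannot be told apart.

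Ret makes proteins with 2 carboxyl ends, Ret9 and Ret51, and the captured files count a transcript of each, with 1073 codons for Ret9 and 1115 for Ret51. Read letter by letter, their coding sequences part after 3191 bases. The ends are shown because they give the proteins their different tails; the 2 counts also differ by untranslated bases, at the 3′ end of both and at the 5′ end of the Ret9 transcript; lower case marks the last 24 shared bases and capitals the bases of that transcript alone, down to the stop codon (GENCODE M21, chr6:118155256-118155286 for Ret9 and chr6:118153853-118154009 for Ret51, minus strand).
Ret9: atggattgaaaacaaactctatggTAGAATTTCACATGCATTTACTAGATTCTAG
Ret51: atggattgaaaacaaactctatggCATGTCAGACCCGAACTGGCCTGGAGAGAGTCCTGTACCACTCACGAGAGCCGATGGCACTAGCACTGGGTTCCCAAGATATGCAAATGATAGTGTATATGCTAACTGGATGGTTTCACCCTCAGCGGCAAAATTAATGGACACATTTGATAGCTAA
A read on the 3190 exon bases that both transcripts share counts for both. Ret9 exceeded Ret51 in all 4 libraries, with 3536 against 3204 reads in En1+/- and 1461 against 1291 in wild type, and 2324 against 1862 on the infused side and 1654 against 1396 on the contralateral side. The ratio of the 2 counts was 1.10 in En1+/- and 1.13 in wild type, and 1.25 on the infused side and 1.18 on the contralateral side. Within the pairs both forms had log2 ratios between 0.24 and 0.32.

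Gfra1 (ENSMUSG00000025089; chr19:58235604-58455909, minus strand), the GDNF co-receptor gene, had 809 reads in En1+/- and 414 in wild type, 603 on the infused side and 721 on the contralateral side, and 2408 after 6-OHDA then En2 and 1714 after 6-OHDA. En1+/- and wild type held 247 and 274 CPM, a log2 ratio of -0.03 (-0.21 to 0.14) that counting error alone spans. The infused side had a log2 ratio of -0.43 (-0.59 to -0.27), which was -0.01 when scaled by library totals. After 6-OHDA then En2 the ratio was 0.26 (0.17 to 0.35), the highest of the 9 in that pair. On 416 exon bases Gfra1 overlaps the antisense gene Gm16277, and the sources used here do not give whether counting used strand.

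The lower value of Gfra1 on the infused side was not spread evenly along the transcript. A shorter transcript (1937 bases, 468 codons) lies wholly within the longer one counted above (4641 bases, the same coding sequence). The bases that only the longer one holds carry no coding sequence and are for the most part 2558 bases of its 3′ end. Over the shorter transcript there were 34 reads on the infused side and 131 on the contralateral side, a log2 ratio of -2.10 (-2.71 to -1.56), while the remaining bases held 569 and 590 reads, a ratio of -0.22 (-0.39 to -0.06). Reads outside the shorter transcript made up 94.4% (92.2 to 96.1) of the longer one's reads on the infused side and 81.8% (78.8 to 84.6) on the contralateral side. In En1+/- and wild type they made up 71.2% (67.9 to 74.3) and 71.5% (66.9 to 75.8). On this measure the infused library had the highest share of the 4.

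Gfra2 (ENSMUSG00000022103; chr14:70890120-70979838, plus strand), which encodes the neurturin co-receptor, had 135 reads in En1+/- and 81 in wild type, 93 on the infused side and 164 on the contralateral side, and 734 after 6-OHDA then En2 and 588 after 6-OHDA. The infused side held 40.3 CPM and the contralateral side 85.9 CPM, the highest of the captured libraries, and En1+/- and wild type held 41.3 and 53.6 CPM. The log2 ratio of the infused side was -0.99 (-1.37 to -0.62), just short of the rule of size. It passed the rule when the pair was scaled by TMM factors, by totals outside mitochondrial and ribosomal RNA genes or by dopaminergic marker reads. The En1+/- ratio was -0.26 (-0.67 to 0.15), and it was 0.52 with library totals.

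Of the 9 other genes of the GDNF family pathway, few reached the minimum of reads. In the En1+/- pair 3 were measured, of which 1 was higher and 1 lower, beside 20.2% and 14.2% of all genes. Nrtn, which encodes neurturin, was higher with 21 reads in En1+/- and 1 in wild type (log2 ratio 3.00, 0.76 to 8.76). It reached the minimum through En1+/- alone. Gfra4 was past the rule as lower at 39 and 40 reads before scaling (-1.02, -1.71 to -0.36). It was also past the rule as lower on the contralateral side against the same wild type library (-2.54). Ncam1, a cell adhesion molecule that also binds GDNF, had a ratio of 0.16. None of the 2 measured on the infused side passed. After 6-OHDA then En2, 2 of 4 measured genes were higher, beside 4.66% of all genes. Gdnf had 60 reads after 6-OHDA then En2 and 15 after 6-OHDA, 3.33-fold, and Artn, which encodes artemin, had 22 and 6, 2.97-fold. Both had under 20 reads after 6-OHDA and so reached the minimum through the other library alone. In the 4 captured libraries Gdnf had at most 1 read.

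The neurotrophin genes hold the ligand Bdnf and the receptor genes Ntrk2 and Ntrk3. Bdnf (ENSMUSG00000048482; chr2:109674700-109727007, plus strand), which encodes brain-derived neurotrophic factor, had 68 reads in En1+/- and 19 in wild type, 8 on the infused side and 21 on the contralateral side, and 477 after 6-OHDA then En2 and 389 after 6-OHDA. It was the least read of the 9 in every captured library, and En1+/- stood highest at 20.8 CPM against 12.6 CPM in wild type, with 3.46 CPM on the infused side and 11.0 CPM on the contralateral side. The log2 ratio was 0.83 (0.09 to 1.66) for En1+/- and -1.50 (-2.95 to -0.33) for the infused side, and the infused value was past the rule on few reads: requiring 20 in both libraries removed the call. The 10 counted transcripts, which differ in their first exons, held 8 reads each on the infused side and 21 or 22 on the contralateral side, so the counts do not separate them. Bdnf overlaps the antisense gene Gm45346 on 896 exon bases. In the punches the log2 ratio was 0.06 (-0.14 to 0.26).

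Ntrk2 (ENSMUSG00000055254; chr13:58806569-59133970, plus strand) encodes TrkB, the receptor of BDNF. It had 3309 reads in En1+/- and 1274 in wild type, 2334 on the infused side and 1756 on the contralateral side, and 17553 after 6-OHDA then En2 and 13235 after 6-OHDA. The captured libraries lay between 844 and 1011 CPM, for 1 transcript, and the punched libraries at 831 and 922 CPM, for the whole gene. These 2 kinds of value cannot be set against each other. The log2 ratios were 0.38 (0.28 to 0.47) for En1+/-, 0.24 (0.15 to 0.33) for the infused side and 0.17 (0.14 to 0.21) for 6-OHDA then En2. With dopaminergic marker reads as the scale, the infused side was at 0.00 (-0.09 to 0.09) and 6-OHDA then En2 at -0.26. Ntrk2 is expressed by astrocytes as well as neurons. The 10 astrocyte markers, none at 0 in any library, summed to 5982 CPM in En1+/- and 6007 in wild type, 8040 on the infused side and 7794 on the contralateral side, and 7090 after 6-OHDA then En2 and 5896 after 6-OHDA. Their part in the Ntrk2 values was not tested.

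The most-read Ntrk2 transcript in every captured library was the one for truncated TrkB, a receptor of 476 residues without a kinase, and not the one for full-length TrkB with 821. The 2 coding sequences part after 1394 bases. The bases at which they part are shown, 37 that close the truncated form (chr13:58932024-58932060) and the first 60 of the full-length form (chr13:58985803-58985862, plus strand), in capitals after 24 shared bases in lower case.
Truncated TrkB: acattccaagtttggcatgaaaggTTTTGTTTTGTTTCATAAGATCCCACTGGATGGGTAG
Full-length TrkB: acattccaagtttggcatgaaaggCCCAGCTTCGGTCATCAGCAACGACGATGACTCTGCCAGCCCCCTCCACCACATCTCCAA
The transcripts share 1737 exon bases, and 5109 are found only in the truncated and 7007 only in the full-length one. Full-length Ntrk2 had 1776 reads in En1+/- and 529 in wild type, and 1132 on the infused side and 769 on the contralateral side. Its log2 ratio in the En1+/- pair was 0.75 (0.61 to 0.89), above the 0.38 of truncated Ntrk2 with no overlap of the intervals. The reads of the truncated form were accordingly 1.86 times those of the full-length form in En1+/- and 2.41 times in wild type. On the infused side they were 2.06 times and on the contralateral side 2.28 times, with log2 ratios of 0.24 (0.15 to 0.33) for the truncated and 0.39 (0.25 to 0.52) for the full-length form. Shared reads enter both counts, so the 2 intervals are not independent.

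**Figure D4:**
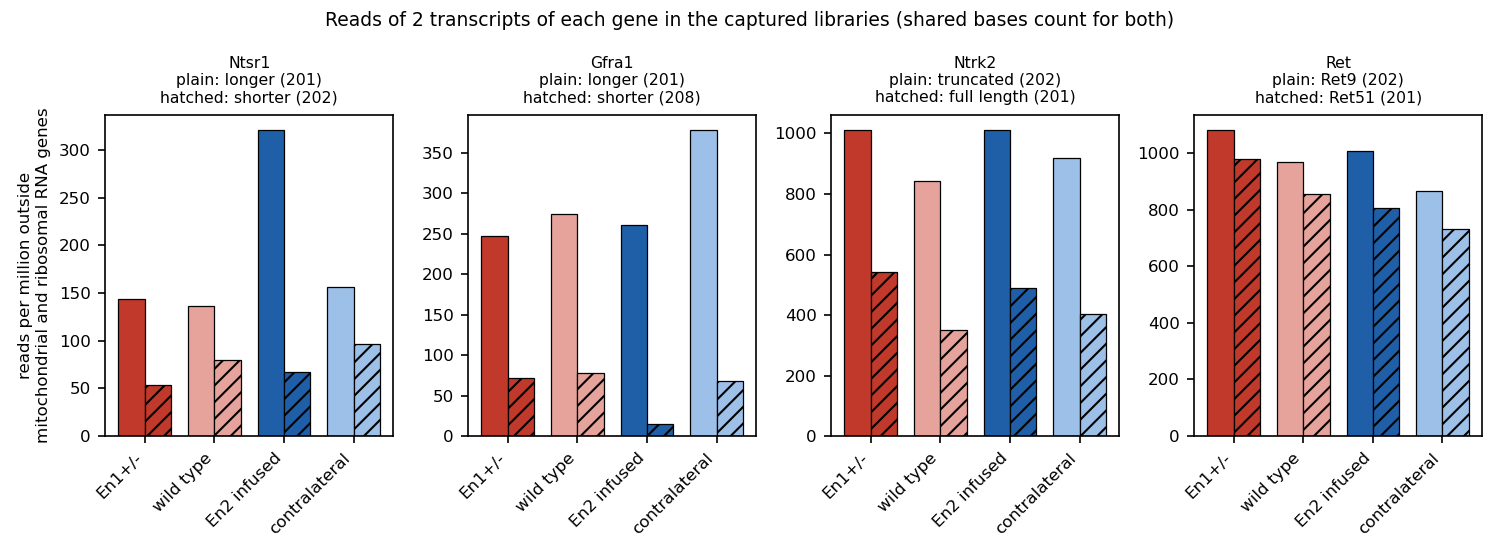
Level, in CPM, of 2 transcripts each of Ntsr1, Gfra1, Ntrk2 and Ret in the 4 captured libraries, plain and hatched as each panel's title says; reads on shared bases count for both. The infused library has the tallest plain bar for Ntsr1 beside a hatched bar below that of the contralateral library, and the shortest hatched bar for Gfra1.

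Ntrk3 (ENSMUSG00000059146; chr7:78175959-78738012, minus strand) encodes TrkC, the receptor of neurotrophin 3. It had 162 reads in En1+/- and 121 in wild type, 47 on the infused side and 146 on the contralateral side, and 735 after 6-OHDA then En2 and 555 after 6-OHDA. En1+/- held 49.5 CPM and wild type 80.1 CPM, and the infused side held 20.4 CPM and the contralateral side 76.5 CPM, so the infused library was the lowest. The log2 ratio was -0.58 (-0.93 to -0.23) for En1+/-, with 0.20 by library totals, and -1.80 (-2.31 to -1.32) for the infused side, 3.47-fold lower and past the rule. In the punches it was 0.17 (0.01 to 0.33).

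For Ntrk3 the full-length transcript, with 825 codons, was the most read, and the truncated one, with 612, had fewer reads in all 4 captured libraries. The transcripts share 1784 exon bases, and 17919 are found only in the full-length and 2193 only in the truncated one. As these counts are not per base, they do not tell which of the 2 forms was more abundant. The point at which their coding sequences part is shown in the same way, with the first 60 bases of each (chr7:78260355-78260414 for full-length and chr7:78304367-78304426 for truncated TrkC, minus strand).
Full-length TrkC: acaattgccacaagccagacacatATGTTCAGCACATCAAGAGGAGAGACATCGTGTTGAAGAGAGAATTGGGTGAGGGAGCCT
Truncated TrkC: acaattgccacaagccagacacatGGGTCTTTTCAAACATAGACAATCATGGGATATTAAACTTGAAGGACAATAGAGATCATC
Truncated Ntrk3 had 78 reads in En1+/- and 92 in wild type, and 21 on the infused side and 110 on the contralateral side. Its log2 ratio was -1.23 (-1.69 to -0.79) in the En1+/- pair and -2.53 (-3.31 to -1.88) in the infusion pair. All 4 counted transcripts of Ntrk3 were lower on the infused side, with log2 ratios of -2.53 to -1.80. In the En1+/- pair all 4 were lower too, with ratios of -4.86 to -0.53, under median-of-ratios scaling.

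Among the 10 other neurotrophin pathway genes, 4, 5 and 7 were measured in the En1+/-, infusion and punched pairs. None passed in the En1+/- pair, where Sort1, the sorting receptor sortilin, had a ratio of 0.41, Kidins220, a scaffold of Trk receptors, 0.19, and the adaptor gene Frs2 -0.37. On the infused side 1 of 5 was higher, beside 20.7% of all genes. This was Ngfr, the p75 neurotrophin receptor gene, with 30 reads there and 9 on the contralateral side, 2.86-fold. It reached the minimum through the infused library alone. Sort1, Kidins220 and Frs2 had ratios of 0.08, -0.26 and 0.75 on that side. After 6-OHDA then En2, Sort1, Kidins220 and Frs2 had ratios of -0.11, -0.05 and -0.07.

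Ntsr1 (ENSMUSG00000027568; chr2:180499976-180544980, plus strand) is the high-affinity neurotensin receptor gene. It had 470 reads in En1+/- and 206 in wild type, 741 on the infused side and 299 on the contralateral side, and 333 after 6-OHDA then En2 and 244 after 6-OHDA. The infused library stood alone at 321 CPM, while the other 3 captured libraries lay between 136 and 157 CPM. Its log2 ratio on the infused side was 1.14 (0.94 to 1.34), and 66.5% of all measured genes in that pair differed by less. In the authors' deposited table this transcript had a log2 fold change of 1.17 with a p of 0.0507 and an adjusted p of 1, computed by a DESeq model without replicates. In the En1+/- pair the ratio was 0.19 (-0.05 to 0.43), and in the punches 0.21 (-0.03 to 0.46). Per 1000 dopaminergic marker reads Ntsr1 took 31.6 on the infused side and 16.9 on the contralateral side, and on that scale its ratio of 0.90 was under the rule of size.

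The higher Ntsr1 value on the infused side came from bases outside the coding sequence. A shorter transcript (2594 bases) lies wholly within the longer one counted above (3917 bases), both code for the same 424 residues, and the longer one alone holds 761 more bases at the 3′ end, 251 at the 5′ end and 311 inside, none of them coding. Over the shorter transcript, which includes all coding bases, there were 155 reads on the infused side and 184 on the contralateral side, a log2 ratio of -0.42 (-0.74 to -0.10). The remaining bases held 586 and 115 reads, a ratio of 2.17 (1.89 to 2.48), or 4.51-fold. They made up 79.1% (76.0 to 82.0) of the longer transcript's reads on the infused side and 38.5% (32.9 to 44.2) on the contralateral side. The En1+/- pair showed the same split in a smaller size, with 295 and 85 reads on the remaining bases (0.79, 0.44 to 1.16) against 175 and 121 over the shorter transcript (-0.47, -0.81 to -0.12). Summed over both transcripts the infused side's ratio was 0.74 (0.57 to 0.90) and under the rule of size.

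Whether such a split was general was looked at in 1189 captured genes with a longer transcript reaching at least 500 bases past the 3′ end of a shorter one. The median share of reads past that end was 66.3% in En1+/- and 68.2% in wild type, and 70.3% on the infused side and 67.2% on the contralateral side. The share was higher on the infused side in 633 of these genes and lower in 509, and higher in En1+/- than in wild type in 526 and lower in 610. The part of library-wide 3′ coverage in the Ntsr1 and Gfra1 values was not tested beyond this.

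No other neurotensin gene was past the rule in any of the 3 pairs. Ntsr2, the low-affinity receptor gene, which astrocytes express, had 312 reads on the infused side and 250 on the contralateral side (log2 ratio 0.15, -0.10 to 0.39), and ratios of -0.02 in the En1+/- pair and 0.16 in the punched pair. Nts, the gene of the peptide itself, had 1 to 16 reads in the captured libraries and, in the punches, 241 after 6-OHDA then En2 and 136 after 6-OHDA, a ratio of 0.59 (0.28 to 0.91). Sort1, which also binds neurotensin, is given with the neurotrophin genes above.

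Cntfr (ENSMUSG00000028444; chr4:41657498-41697089, minus strand), the α receptor gene of ciliary neurotrophic factor, had 285 reads in En1+/- and 56 in wild type, 26 on the infused side and 97 on the contralateral side, and 928 after 6-OHDA then En2 and 772 after 6-OHDA. It was the only one of the 9 past the rule in 2 pairs, and in opposite directions. En1+/- held 87.1 CPM and wild type 37.1 CPM, and the infused side held 11.3 CPM and the contralateral side 50.8 CPM. Both calls held under each scaling tried, and the one on the infused side was lost with a minimum of 100 reads, which neither of its libraries reaches. The log2 ratio was 1.34 (0.93 to 1.79) in the En1+/- pair and -2.05 (-2.76 to -1.43) in the infusion pair, 4.14-fold lower. All 6 counted transcripts were higher in En1+/-, by 1.16 to 1.85, and all 6 were lower on the infused side. The punches held 48.7 CPM after 6-OHDA then En2 and 48.5 CPM after 6-OHDA, a ratio of 0.03 (-0.11 to 0.17). In the authors' deposited tables the most-read Cntfr transcript had an adjusted p of 1 in both captured pairs.

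Genes that share gp130 signalling with Cntfr were counted beside it. In the En1+/- pair 2 of 11 were measured and none passed, with ratios of 0.66 for Il6st, which encodes gp130, and -0.07 for Lifr, the LIF receptor gene. On the infused side 3 of 5 measured genes were past the rule as higher, where 20.7% of all genes were, and each of the 3 had under 20 reads on the contralateral side. Il6ra, the interleukin 6 receptor gene, had 138 reads there and 16 on the contralateral side, 7.46-fold, and Osmr, the oncostatin M receptor gene, 98 and 19, 4.49-fold. For Lif, the cytokine gene, 22 and 0 reads were counted, which makes it at least 6.51-fold higher when a floor of 3 reads is set for the contralateral side. The 2 genes with 20 reads or more in both libraries were not past the rule: Il6st had 190 reads on the infused side and 317 on the contralateral side, a ratio of -0.91 (-1.18 to -0.65), and Lifr 296 and 194, a ratio of 0.44 (0.17 to 0.71). In the punches 5 of 8 were higher after 6-OHDA then En2, beside 4.66% of all genes: Il6 with 767 reads, against 20 after 6-OHDA, 31.9-fold, Lif with 916 and 83, 9.34-fold, Osm with 115 and 27, 3.58-fold, Osmr with 2613 and 642, 3.46-fold, and Clcf1 with 119 and 32, 3.13-fold. The receptor genes Il6st and Lifr, with more reads than most of these, had ratios of 0.51 and -0.10 there. Beside these, the microglia and macrophage markers summed to 806 CPM on the infused side and 425 on the contralateral side. None of the 10 was at 0 in any library. Of 9 measured, 4 were higher and none lower, where 20.7% of all genes were higher and 17.0% lower. Aif1, 1 of the 4, had 26 and 7 reads and reached the minimum through the infused library alone. These markers summed to 135 CPM after 6-OHDA then En2 and 262 after 6-OHDA. There 4 of 10 were lower and none higher, where 1.23% of all genes were lower and 4.66% higher. Of the 10 astrocyte markers 1 was past the rule as higher on the infused side, Gfap, with 1092 reads there and 155 on the contralateral side, and 1 as lower, Gjb6, with 47 and 151, and 4 of the 10 ratios lay above 0. The part of these cells in the cytokine values was not tested.

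Igf1r (ENSMUSG00000005533; chr7:67952827-68233668, plus strand), the receptor kinase gene of IGF-1, had 200 reads in En1+/- and 74 in wild type, 48 on the infused side and 72 on the contralateral side, and 192 after 6-OHDA then En2 and 154 after 6-OHDA. Its level was 61.1 CPM in En1+/- and 49.0 CPM in wild type, 20.8 CPM on the infused side and 37.7 CPM on the contralateral side, and 10.1 CPM after 6-OHDA then En2 and 9.67 CPM after 6-OHDA. The infused library was the lowest of the captured ones. The log2 ratio was 0.43 (0.04 to 0.84) for En1+/-, -0.75 (-1.32 to -0.21) for the infused side and 0.08 (-0.23 to 0.40) for 6-OHDA then En2, none past the rule.

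Of 11 other genes of the IGF and insulin pathway 10, 8 and 10 were measured. In the En1+/- pair 2 were higher and 1 lower, near the 20.2% and 14.2% of all genes. In the infusion pair 1 was higher and 1 lower, beside 20.7% and 17.0% of all genes. In En1+/- Insr, the insulin receptor gene, was 2.79-fold lower with 141 reads there and 197 in wild type, while Irs1, a docking protein gene of both receptors, was 2.28-fold higher with 234 and 51, and Igfbp2, an IGF binding protein gene, 3.62-fold higher with 96 and 13. Irs1 was also past the rule as higher on the contralateral side against that wild type library, with 132 and 51 reads (1.07). The infused side had 56 reads of Igfbp2 and the contralateral side 11, 4.37-fold higher, and 37 and 76 reads of Igf2, a ligand gene, 2.30-fold lower. Igfbp2 reached the minimum through En1+/- alone in the En1+/- pair and through the infused library alone in the infusion pair. No gene of the list passed in the punches, where Igfbp5 had a ratio of 0.60, Igf2 0.09 and Insr -0.27. A list of 13 other trophic factors and receptors gave 2 higher and 1 lower of 9 in En1+/-, near the 20.2% and 14.2% of all genes. Higher were Manf (56 reads in En1+/- and 10 in wild type, 2.74-fold) and Tgfb2 (70 and 13, 2.65-fold), which reached the minimum through En1+/- alone. Lower was Egfr, 2.04-fold. On the infused side 1 of 7 was lower (Fgf2, 2 reads there and 25 on the contralateral side), beside 17.0% of all genes. In the punches 1 of 12 was higher (Fgf2, 111 reads after 6-OHDA then En2 and 31 after 6-OHDA), beside 4.66% of all genes. Manf (1.43) and Fgf2 (1.69, with 25 and 6 reads) were also past the rule as higher on the contralateral side against wild type. Fgf2 reached the minimum through the contralateral library alone, there and in the infusion pair. Fgfr1, Ptn and Vegfa, the most read of that list, were past the rule in none of the 3 pairs.

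Genes that receptor tyrosine kinases are known to switch on in cultured cells and brain were counted as well. In En1+/- 3 of 10 measured were higher and 2 lower, near the 20.2% and 14.2% of all genes. Higher were Vgf, 3.01-fold, Etv1, 2.71-fold, and Dusp6, 2.11-fold with 43 reads there and 10 in wild type. Lower were Arc with 7 reads in En1+/- and 39 in wild type and Spry4 with 11 and 25. Dusp6 reached the minimum through En1+/- alone, and Arc and Spry4 through wild type alone. The contralateral side was past the rule against the same wild type library, in the same direction, for Vgf (1.43), Arc (-2.07) and Spry4 (-2.05). On the infused side 4 of 8 were lower and none higher, where 17.0% of all genes were lower and 20.7% higher: Egr1 with 1 read there and 74 on the contralateral side, Spry2 with 17 and 86, Etv1 with 29 and 83, and Spred2 with 20 and 55. Egr1 and Spry2 reached the minimum through the contralateral library alone. In the punches 2 of 15 were higher and none lower, where 4.66% of all genes were higher and 1.23% lower. Higher were Fos, 2.24-fold with 2641 reads after 6-OHDA then En2 and 1002 after 6-OHDA, and Dusp5, 2.28-fold with 398 and 148. Spred1, the most read of the list, had ratios of 0.57, 0.11 and 0.16 in the 3 pairs.

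**Figure D5:**
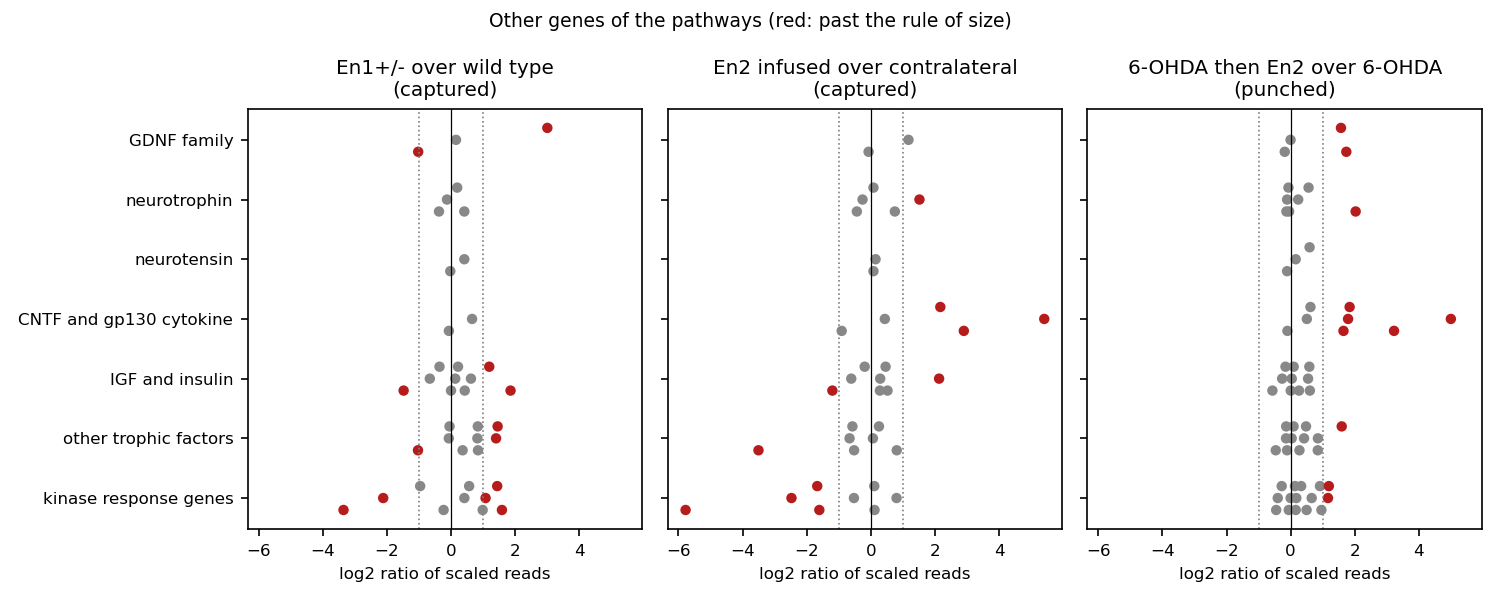
Log2 ratio of each measured gene of 7 pathway lists in the 3 pairs; red points are past the rule of size. On the infused side the CNTF and gp130 list splits into 3 high points, Il6ra, Osmr and Lif, each with under 20 reads on the contralateral side, and the points of Il6st at -0.91 and Lifr at 0.44. The Lif point there is a value against 0 reads and depends on the 0.5 added.

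In the punched pair all 9 genes had ratios above 0, between 0.03 and 0.26, and for Ret, Gfra1, Ntrk2 and Ntrk3 the interval lay above 0, as it did for 20.1% of all measured genes. With library totals the interval of Ntrk3 took in 0 (-0.01 to 0.31). The summed dopaminergic markers were 626 CPM after 6-OHDA then En2 and 471 after 6-OHDA, with 10 of 11 measured markers above 0 and none past the rule. Scaled by these marker reads all 9 ratios turned negative, between -0.40 and -0.18. The authors' deposited table gave fold changes of 1.02 to 1.19 for the 9 genes and an adjusted p of 1 for each.

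The genes whose 3 ratios lay nearest to those of Ret, among 4805 genes with at least 50 reads in every library, were Cggbp1 and Sybu, at Euclidean distances of 0.058 and 0.087 log2 units over the 3 pairs. For Ntrk2 they were Cnksr2 and Snx10, at 0.081 and 0.087. For Ntsr1 they were Ugcg and Tmbim6, at 0.119 and 0.138, with ratios of 1.21 and 1.04 on the infused side. Cntfr had under 50 reads on the infused side and was not placed.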

How the data were processed

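Total RNA of 4 laser-captured and 2 punched samples of mouse SNpc was sequenced, per the labels' protocols. Bowtie, HTSeq and DESeq 1.8.3 are named, without roles, in the submitters' processing notes, with mm10 as the build, while 1 header in the comparison table of the punches names mm9. The deposited counts are per transcript (95533) for captured samples, where reads on shared exons count more than once, and per gene for punched samples. Comparison tables deposited by the authors hold log2 fold changes (captured pairs) or a linear fold change (punched pair), with p-values and adjusted p-values from DESeq without replicates; their 6 mean columns per library were not used here. The deposited tables of the infusion pair name En1 where the labels name En2, and the labels were followed. Transcripts without a gene identifier (9402, with 2.93% to 4.78% of captured counts) were left out, and 4 counts that stand 1 column to the right in the punched files were moved back.

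Each captured gene was represented by its most-read transcript. Counts of a pair were divided by median-of-ratios factors, 0.5 was added and log2 ratios were taken, with exact Clopper-Pearson 95% intervals on how a gene's reads split between the 2 libraries; levels carry exact Poisson intervals. Samples were grouped by their labels. With 1 sample per group no test was made, and calls follow the rule of size. Nested transcripts were compared by the reads of the shorter one and by the difference of the 2 counts. Positions, lengths and sequences come from GENCODE M21 on GRCm38. Named are the 9 genes and, of each pathway list, the 3 most-read genes and those past the rule; not every such gene is reported in every pair. The transcript comparisons of Ntsr1 and Gfra1 were chosen after their values had been seen. The 9 genes, the lists and the rules were chosen with earlier results of these data known. Alternatives were library totals, totals outside mitochondrial and ribosomal RNA genes, TMM factors (edgeR 4.0.16 in R 4.3.3), other minimum counts and pseudocounts, sums over transcripts and the longest transcript, and, added after seeing the data, dopaminergic marker reads and 20 reads in both libraries. The scripts were tested on simulated counts. Python 3.11.15, pandas 2.3.3 and scipy 1.17.1 were used.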

Additional observations from a re-analysis of the deposited data

How the results depend on the processing

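With library totals 5 of the 9 genes were past the rule as higher in En1+/- (Bdnf, Cntfr, Igf1r, Ntrk2 and Ret), against 1 as reported; that scaling moves the median of all genes, and Gfra1, Gfra2 and Ntrk3 then lie above 0. A minimum of 100 reads left 2 calls on the infused side, Ntsr1 and Ntrk3, against 4, since Bdnf and Cntfr have fewer reads. Under the other alternatives that side kept 3 to 5 calls and no gene changed sign: TMM factors and totals outside mitochondrial and ribosomal RNA genes added Gfra2, library totals and 20 reads in both libraries dropped Bdnf, sums over transcripts dropped Ntsr1, and dopaminergic marker reads dropped Ntsr1 and added Gfra2. Sums over transcripts turned the small En1+/- ratios of Gfra1 (0.08) and Ntsr1 (-0.02). In the punches no alternative gave a call. Counts over all genes moved by over 1.5 times, beyond the changes with scaling already given, when the minimum count changed. The number of measured genes changed with it. Without a minimum it was 35049 in each captured pair and 37991 in the punched pair. The lower genes were then 2841 against 1632 in the En1+/- pair, 3099 against 1933 in the infusion pair and 296 against 193 in the punched pair. With 100 reads 6484, 5651 and 12617 genes were measured in these pairs. The higher and lower genes were 1266 and 310, 1001 and 470, and 484 and 58. As shares of measured genes these were 19.5% and 4.78%, 17.7% and 8.32%, and 3.84% and 0.46%. With 20 reads in both libraries 8715, 8597 and 14931 genes were measured. The higher and lower genes were then 985 and 1005, 1125 and 846, and 460 and 104. No paired analysis was possible because each group holds 1 sample. Leaving out a replicate was not possible for the same reason. Depth limits Bdnf most, with 8 to 68 reads in the captured libraries.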
